A study of Mus musculus with 67 samples.

Results

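Bone morphogenetic protein (BMP) ligands and their antagonists were examined in RNA-seq of mouse forelimb buds, as 10 genes among the 46983 gene IDs of each library. The genes were chosen by name. They were the ligands Bmp2, Bmp4, Bmp5, Bmp7, Gdf5 and Gdf6 and the antagonists or modulators Grem1, Nog, Chrd and Bmper. Levels are given in TPM, the share of a library's transcripts after correction for transcript length, so that genes can be compared within a library. The 14 libraries made up 4 groups, which were whole forelimb buds at E9.25 (21 to 23 somites, before HH signaling), WT (n = 3) and Gli3-/- (n = 4), and anterior forelimb buds at E10.5 (32 to 35 somites, after the onset of HH signaling), WT (n = 4) and Gli3-/- (n = 3). WT embryos were Swiss Webster, and Gli3-/- embryos were of the same background with the Xt-J allele, a deletion of the 3' part of Gli3, so that RNA of the rest of the gene can still be counted. A library was a pool of about 4 pairs of buds at E9.25 or 2 pairs at E10.5 by the labels, whereas the methods of the study give about 4 pairs at both stages, and is counted as a replicate.

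BMP ligands bind type I and type II receptor kinases, which phosphorylate SMAD1, SMAD5 and SMAD9, and these enter the nucleus with SMAD4 to act on genes such as the Id and Msx families. Secreted antagonists bind the ligands outside the cell and keep them from the receptors. In the limb bud, Grem1 is the antagonist that lowers BMP activity next to the apical ectodermal ridge and so maintains the loop between SHH in the posterior mesenchyme and FGFs in the ridge. Its expression is restricted by GLI3 repressor in the anterior bud. BMPs also act in the forming digits and joints, where Gdf5 and Gdf6 are known from skeletal defects.

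Promoter sequences were taken from RefSeq (GRCm38.p6), which listed 5 of the 10 genes. The 250 bases before the start of 3 of them are shown 5' to 3'. They bear on Grem1 (2:113758649-113758898, minus strand), the highest of the 4 antagonists or modulators at E10.5. They also bear on Chrd (16:20732877-20733126, plus strand), the other of the 4 found with the same motif. The last is Bmp5 (9:75775115-75775364, plus strand), the ligand with the largest genotype difference at E9.25. Capitals mark GGCGCC, a GC-rich element that BMP-activated SMADs are known to bind.
Grem1: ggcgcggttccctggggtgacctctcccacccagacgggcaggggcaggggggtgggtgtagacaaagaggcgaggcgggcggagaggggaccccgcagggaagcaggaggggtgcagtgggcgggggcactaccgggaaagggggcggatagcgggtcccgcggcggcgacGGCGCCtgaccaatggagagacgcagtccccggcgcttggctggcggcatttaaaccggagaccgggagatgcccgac
Chrd: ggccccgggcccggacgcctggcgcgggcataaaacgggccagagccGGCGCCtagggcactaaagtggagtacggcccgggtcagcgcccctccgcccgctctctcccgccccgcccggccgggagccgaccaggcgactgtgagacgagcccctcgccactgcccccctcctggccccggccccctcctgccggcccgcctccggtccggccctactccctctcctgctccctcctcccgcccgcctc
Bmp5: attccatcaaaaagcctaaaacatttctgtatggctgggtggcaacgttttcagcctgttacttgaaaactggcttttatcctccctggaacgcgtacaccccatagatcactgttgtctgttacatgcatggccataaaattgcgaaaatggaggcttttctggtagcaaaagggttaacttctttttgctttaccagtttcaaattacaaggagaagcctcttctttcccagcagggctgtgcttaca
GGCGCC was found at position -78 from the start in Grem1 and at position -203 in Chrd, and it was in 9.59% of 32851 promoters of this length. It was not found in the windows of Bmp4, Bmp5 and Bmper. The GLI consensus TGGGTGGTC was in none of the 5 windows and in 0.225% of all promoters, and the shorter GGGTGGT within it was in none of the 5 and in 3.92%. TATAAA was in none of the 5 and in 12.4% of all promoters. All letters were searched on both strands. G and C made up 72.0% of the Grem1 window, 78.0% of the Chrd window and 42.8% of the Bmp5 window, against a median of 52.4% over all promoters.

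Depth was estimated at 38.1 to 56.8 M reads a library, and a TPM of 1 came to 20.7 to 29.3 reads per kilobase of transcript. Limb mesenchyme markers summed to 472 to 809 TPM in every library, and neural tube markers to at most 0.677 TPM. Some libraries stood apart. In the library labelled E9.25 WT replicate 2, the targeted gene Gli3 was at 15.8 TPM, inside the range of the E9.25 Gli3-/- libraries (14.3 to 20.8), whereas WT replicates 1 and 3 had 44.2 and 44.6 TPM. E10.5 WT replicate 2 had the highest summed level of posterior limb bud markers of its group (116.3 TPM, against 60.8 to 82.6 in the other 3). E10.5 Gli3-/- replicate 3 had 33230 TPM of erythroid markers, against 11900 and 12980 in the others of its group, and E9.25 Gli3-/- replicate 3 had 23350 TPM, against 6888 to 12960. Gli3 at E10.5 was at 73.4 to 89.7 TPM in WT and 38.7 to 40.9 TPM in Gli3-/-. It fell by 1.01 on the log2 scale at E10.5 (SE 0.08, limma adjusted p = 0.000335), and its difference at E9.25 was -0.74 (SE 0.32, adjusted p = 0.223), or -1.22 (SE 0.18, adjusted p = 0.0415) when WT replicate 2 was left out. In bulk RNA, fewer cells of a type and less RNA per cell cannot be told apart.

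The order of the levels was first compared within each group. Bmp4, a ligand of limb mesenchyme and ridge, had the highest mean of the 10 genes in every group. At E9.25 it was at 44.7 ± 4.83 TPM (SD, n = 3) in WT and 53.8 ± 10.2 (n = 4) in Gli3-/-, and at E10.5 at 41.7 ± 5.15 (n = 4) and 46.4 ± 6.33 (n = 3). Bmp7 came next in 3 groups, and in E10.5 Gli3-/- it was exceeded by Grem1. In E9.25 WT, Bmp4, Bmp7 and Bmp5 were each separate from the next gene in the order. Bmp2 (mean 2.77 TPM) and Grem1 (2.21 TPM) overlapped there, as did Gdf6 (1.13 TPM) and Nog (1.09 TPM). In E9.25 Gli3-/-, Bmp7 (17.0 to 28.3 TPM) and Bmp5 (15.5 to 23.3 TPM) overlapped. In E10.5 WT, Bmp4 and Bmp7 overlapped in range, although Bmp4 was the higher of the pair in 4 of 4 libraries, and Grem1, Gdf6 and Bmp5 were each separate from the next gene. In E10.5 Gli3-/-, Bmp4 (39.7 to 52.3 TPM) and Grem1 (37.3 to 47.3 TPM) could not be ordered, since Bmp4 was the higher in 2 of 3 libraries, and Grem1 exceeded Bmp7 (34.3 to 37.5 TPM) in 2 of 3. Chrd and Bmper were at most 1.08 TPM in every library, and Gdf5 was listed at 0 in all 7 libraries of E9.25.

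**Figure D1:**
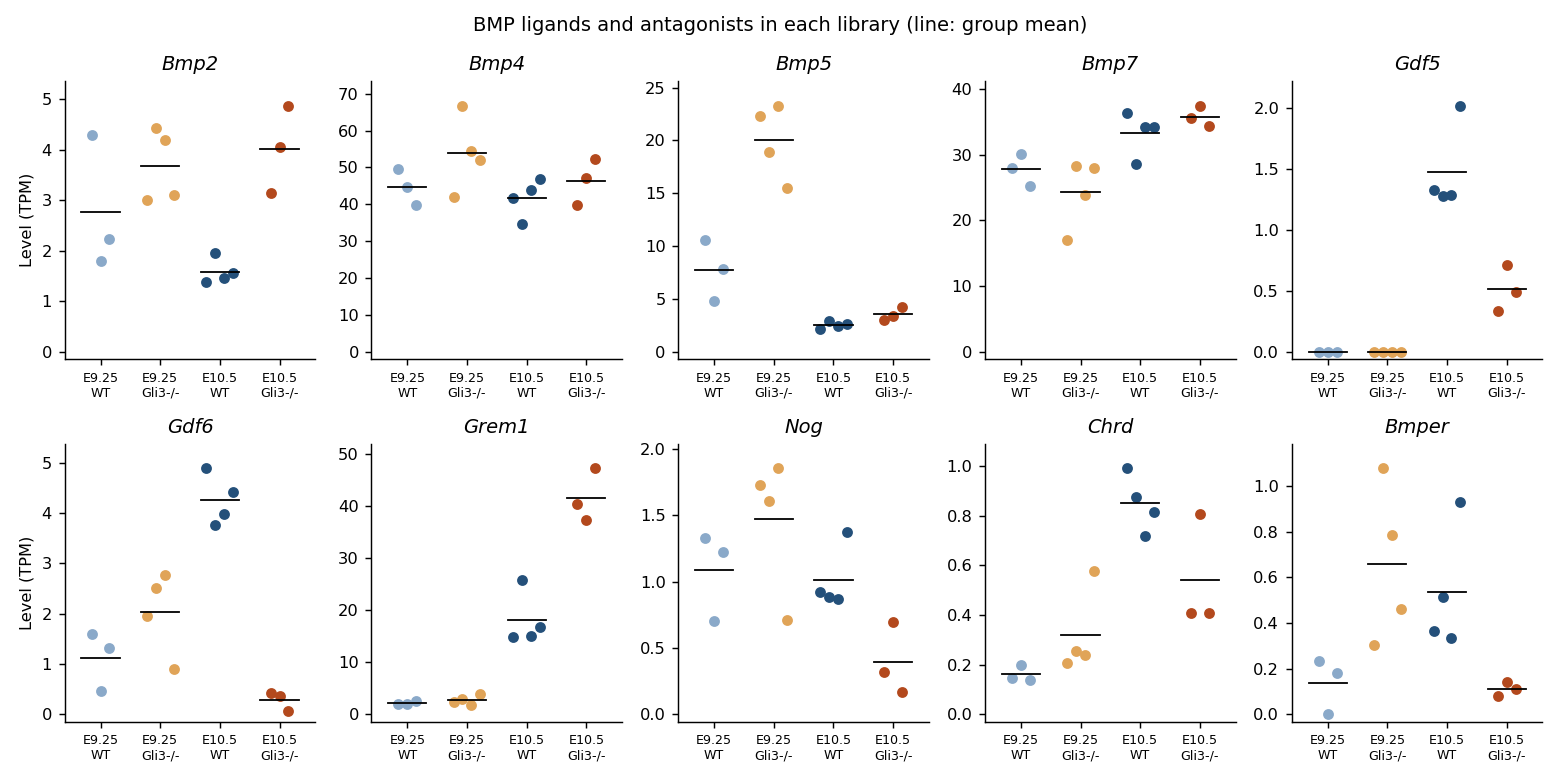
Level of each of the 10 genes in every library (TPM, y axis from 0, a scale for each gene) in the 4 groups on the x axis, with 1 point per library and a line at the group mean. Grem1 lies between 1.87 and 3.90 TPM in the 7 libraries of E9.25 and between 37.3 and 47.3 TPM in E10.5 Gli3-/-, and Gdf6 is at most 0.425 TPM in E10.5 Gli3-/-.

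The comparison of Gli3-/- with WT anterior buds at E10.5 asked how the genes differed when GLI3 was missing from the part of the bud in which it represses. Grem1 and Bmp2 rose, Gdf6 and Gdf5 fell, and Bmp4, Bmp5 and Bmp7 did not pass the test. Of the 10 genes, 7 passed the filter, which asked for a TPM of 1 or more in 3 or more libraries, and 4 of these 7 (57.1%) were called at an adjusted p under 0.05, against 4.77% of the 15654 genes tested. This share is a description, since Gdf5 and Gdf6 reached the filter only through WT, the group in which they were higher, and the 10 genes were chosen with earlier results known. Genes called higher made up 1.84% of all genes tested and genes called lower 2.93%, and the groups did not overlap for 19.3% of all genes and for 5 of the 7 (71.4%). The median difference of the 7 was 0.15 on the log2(TPM + 1) scale, against -0.02 over all genes.

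Among the ligands, Bmp2, which in the limb bud is known from posterior mesenchyme and ridge, was at 1.38, 1.96, 1.45 and 1.56 TPM in the WT libraries and at 3.14, 4.05 and 4.87 TPM in the Gli3-/- libraries. Every Gli3-/- library exceeded every WT library, and the ratio of the means was 2.53. On the log2(TPM + 1) scale, on which low genes appear to change less, Bmp2 rose by 0.95 (SE 0.16, limma adjusted p = 0.00998). It passed in each of the 7 fits that left out 1 library, with adjusted p-values of 0.0105 to 0.0486, the last without Gli3-/- replicate 3 (0.83). Bmp2 did not pass when libraries of the same replicate number were fitted as a block, by title or deposited numbering (limma adjusted p up to 0.0897).

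Gdf6, a ligand needed in some joints, was at 4.89, 3.76, 3.98 and 4.42 TPM in WT. In Gli3-/- it was at 0.425, 0.372 and 0.0672 TPM. The groups were far apart, with no overlap and a ratio of the means of 14.8. Gdf6 fell by 2.04 on the log2 scale (SE 0.15, limma adjusted p = 0.000287), the largest difference among the 7 genes tested, and passed without each library in turn (adjusted p 0.000784 to 0.0024). With a pseudocount of 0.1 in place of 1 the difference was -3.65.

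Gdf5, which marks the joint interzones of the later limb, was listed at 1.33, 1.28, 1.29 and 2.02 TPM in WT. The Gli3-/- libraries had 0.338, 0.716 and 0.489 TPM, all below the WT libraries, with a ratio of the means of 2.88. Gdf5 fell by 0.71 on the log2 scale (SE 0.17, limma adjusted p = 0.0434). This call was lost in all 7 fits that left out 1 library, in which the difference was -0.80 to -0.61 and the adjusted p 0.0564 to 0.146. It was also lost with no filter (adjusted p = 0.0781), with quantile normalization (adjusted p = 0.0655) and with a replicate block by title or deposited numbering. With a pseudocount of 0.1 the difference was -1.38.

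The 3 other ligands were not called. Bmp4 was at 41.6, 34.7, 43.7 and 46.8 TPM in WT and at 39.7, 47.0 and 52.3 TPM in Gli3-/-, so that the groups overlapped, with a difference of 0.15 (95% confidence interval -0.12 to 0.42, limma adjusted p = 0.555). Bmp7, which is made in mesenchyme and ectoderm, was at 36.3, 28.6, 34.3 and 34.2 TPM in WT and at 35.6, 37.5 and 34.3 TPM in Gli3-/-. Its difference was 0.10 (95% confidence interval -0.10 to 0.31, adjusted p = 0.588). Both intervals hold 0 and stop below the differences of Bmp2 and Grem1. Bmp5 was at 2.13, 2.87, 2.39 and 2.67 TPM in WT and at 3.03, 3.38 and 4.20 TPM in Gli3-/-, with no overlap and a difference of 0.36 (95% confidence interval 0.05 to 0.68, adjusted p = 0.193).

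Among the antagonists, Grem1 was at 14.8, 25.8, 15.1 and 16.8 TPM in WT and at 40.4, 37.3 and 47.3 TPM in Gli3-/-. WT replicate 2, which also had the most posterior marker RNA of its group, was the highest WT library, and it still lay below every Gli3-/- library. The ratio of the means was 2.30. The difference was 1.19 (SE 0.18, limma adjusted p = 0.00626), and it was 1.36 without WT replicate 2 (adjusted p = 0.000784) and 1.09 without Gli3-/- replicate 3 (adjusted p = 0.0305). Grem1 did not pass when libraries of the same replicate number by title were fitted as a block (limma adjusted p = 0.0965). With the deposited numbering it passed.

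The other 3 antagonists did not reach the filter at E10.5. Nog, a secreted antagonist of the later cartilage, was at 0.924, 0.885, 0.873 and 1.38 TPM in WT and at 0.317, 0.696 and 0.168 TPM in Gli3-/-, with no overlap. Without the filter its difference was -0.54 (limma adjusted p = 0.167). Chrd, known as an antagonist from the gastrula, was at 0.990, 0.873, 0.716 and 0.816 TPM in WT and at 0.406, 0.806 and 0.408 TPM in Gli3-/-, and 1 Gli3-/- library lay inside the WT range (difference -0.27, adjusted p = 0.34). Bmper, which binds BMPs and can act for or against them, was at 0.364, 0.514, 0.334 and 0.930 TPM in WT. In Gli3-/- it was at 0.0819, 0.144 and 0.109 TPM, below all WT libraries (difference -0.45, adjusted p = 0.174). At such levels few reads stand behind a value.

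**Figure D2:**
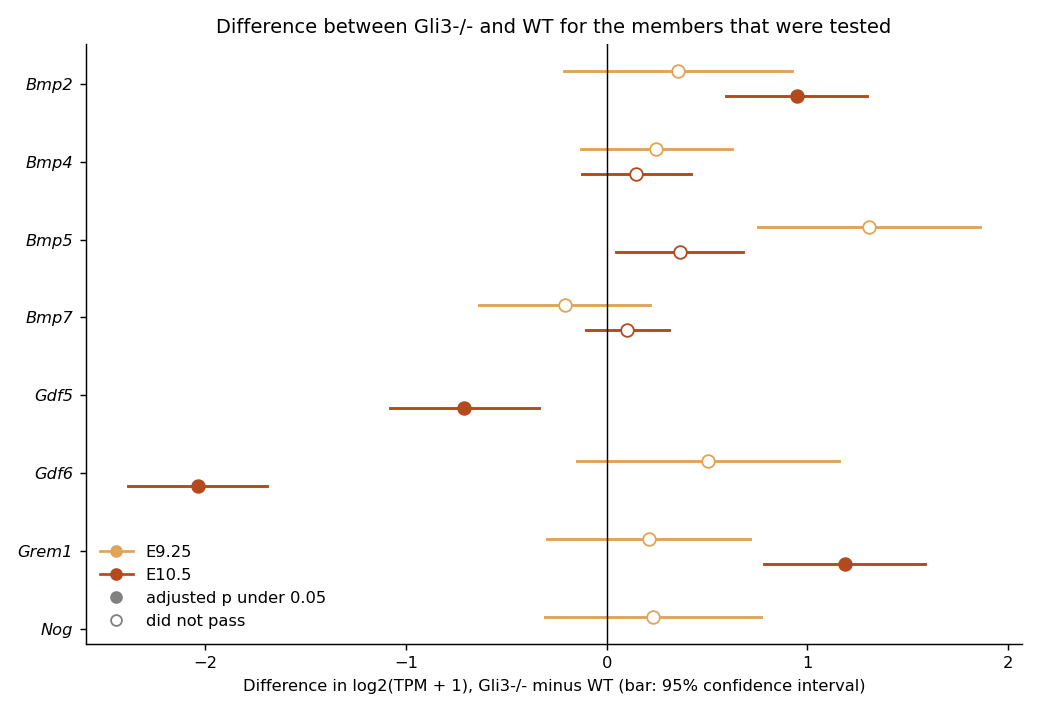
Difference between Gli3-/- and WT on the log2(TPM + 1) scale (x axis) at E9.25 and E10.5 for the 8 genes tested at either stage, with bars for the 95% confidence interval and filled points for an adjusted p under 0.05. The filled points are Bmp2 (0.95), Gdf5 (-0.71), Gdf6 (-2.04) and Grem1 (1.19), all at E10.5.

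Markers of position moved with these differences. All 6 posterior limb bud markers (Hand2, Shh, Hoxa13 and 3 Hoxd genes) rose in Gli3-/- at E10.5, and their summed level was 60.8 to 116.3 TPM in WT and 347.7 to 564.8 TPM in Gli3-/-. This count is a description, since Shh and Hoxd12 reached the filter only through Gli3-/-, the group in which they were higher. In none of the 4 WT libraries was Shh listed above 0. Of the anterior markers, Alx4 fell by 3.50 on the log2 scale (limma adjusted p = 0.00103) and Irx3 fell by 3.12 (adjusted p = 0.00193). Irx5, which reached the filter only through WT, fell by 2.71 (adjusted p = 0.00115), and Pax9 was not tested. Grem1 was highest within WT in the library with the most posterior marker RNA, whereas within Gli3-/- it was lowest in replicate 2, which had the most (564.8 TPM). Surface ectoderm and ridge markers summed to 193.6 to 242.3 TPM in WT and 282.7 to 316.3 TPM in Gli3-/-, where none was at 0. Fgf8 alone of 8 rose, from a mean of 59.1 TPM to 153.2 TPM. The median difference of the list was -0.25, against -0.02 over all genes. Sp8, Trp63, Cdh1, Wnt7a, Krt8 and Krt18 had negative differences and Epcam a positive one, and none of these passed. The part of these markers in the differences of the BMP genes was not tested.

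At E9.25, before HH signaling, the same comparison called none of the 7 genes that passed the filter. Over all 14760 genes tested with limma, 0.136% were called, and 1 of the 7 genes and 3247 genes in all had an unadjusted p under 0.05. The median gene was 0.23 higher in Gli3-/- on the log2 scale, and the median of the 7 was 0.25. The groups did not overlap for 13.3% of all genes and for 1 of the 7 (14.3%).

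That gene was Bmp5, the ligand mutated in the short ear mouse. It was at 10.6, 4.76 and 7.87 TPM in WT and at 22.3, 18.9, 23.3 and 15.5 TPM in Gli3-/-, with a ratio of the means of 2.58. Every Gli3-/- library exceeded every WT library. The difference was 1.31 (95% confidence interval 0.75 to 1.86, limma adjusted p = 0.0937), and it exceeded that of the median gene by 1.08. When the library labelled WT replicate 2 was left out it was 1.03 (adjusted p = 0.157), and none of the 7 genes passed. Bmp5 passed without WT replicate 1 (1.54, adjusted p = 0.0227) and in a single model of all 14 libraries (adjusted p = 0.00722). Far more of all genes were called in that single model than in the main fit. Their number also varied widely over the fits that left out 1 library, with the counts in the closing section. 

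Flank and lateral plate markers separated the genotypes as Bmp5 did. Their summed level was 53.7, 21.0 and 18.7 TPM in the WT libraries and 131.1, 191.7, 202.9 and 69.9 TPM in the Gli3-/- libraries, and 2 of the 5 markers tested rose (Foxf1 by 3.67, limma adjusted p = 0.0125, and Gata4 by 2.87, adjusted p = 0.0128). This count is a description, since Foxf1 reached the filter only through Gli3-/-, the group in which it was higher. Foxf2 was listed at 0 in all 3 WT libraries. The WT library with the most marker RNA, replicate 1, had the most Bmp5 of its group, and the Gli3-/- library with the least, replicate 4, had the least Bmp5. Within groups the order was otherwise not the same, since WT replicate 3 had less marker RNA but more Bmp5 than replicate 2, and Gli3-/- replicate 2 had more marker RNA but less Bmp5 than replicate 1. Without Gli3-/- replicate 4 the Bmp5 difference was 1.42 (adjusted p = 0.0639). Endothelial markers also separated the genotypes, at 56.9 to 89.0 TPM in WT and 99.4 to 141.8 TPM in Gli3-/-, although none of 5 passed. At E10.5 the flank and lateral plate markers summed to at most 3.28 TPM. The part of these markers in the Bmp5 difference was not tested.

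**Figure D3:**
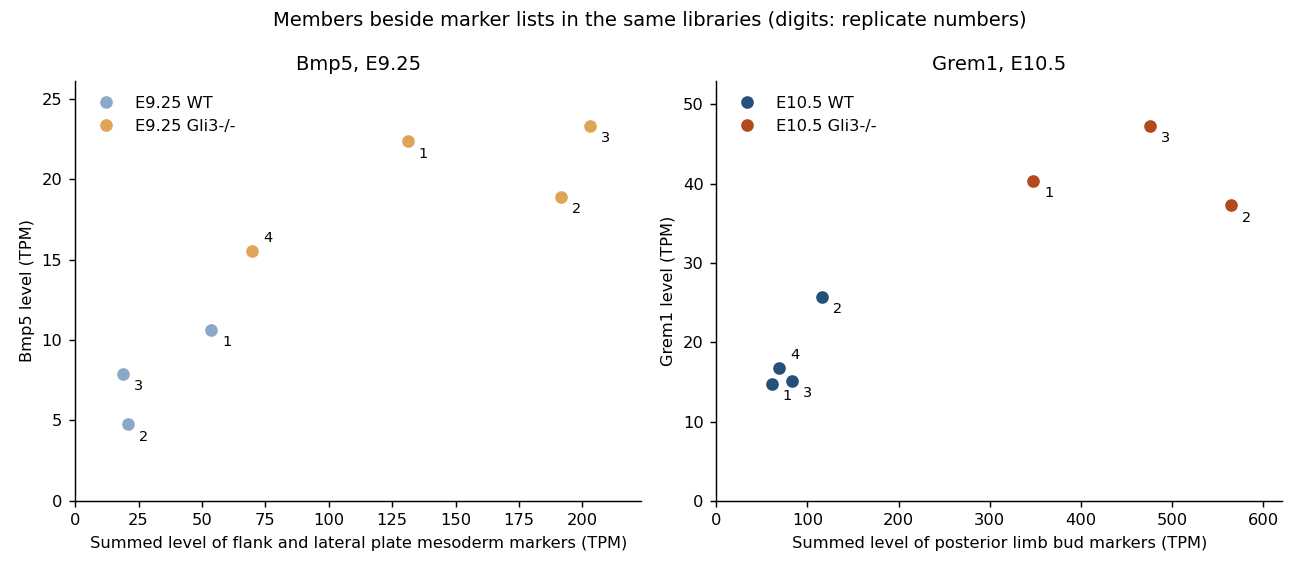
Left, Bmp5 (TPM, y axis) against the summed level of flank and lateral plate markers (TPM, x axis) in the 7 libraries of E9.25, and right, Grem1 against posterior limb bud markers in the 7 libraries of E10.5, with replicate numbers. Gli3-/- libraries lie above and to the right of WT in both, with Bmp5 at 15.5 to 23.3 TPM and Grem1 at 37.3 to 47.3 TPM.

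The other ligands overlapped between genotypes at E9.25. Bmp4 was at 49.6, 44.7 and 39.9 TPM in WT and at 41.9, 66.8, 54.6 and 52.0 TPM in Gli3-/- (difference 0.25, 95% confidence interval -0.13 to 0.62, limma adjusted p = 0.355). Bmp7 was at 28.0, 30.1 and 25.3 TPM and at 17.0, 28.3, 23.9 and 27.9 TPM, the 1 gene tested with a negative difference (-0.21, adjusted p = 0.484). Bmp2 was at 4.29, 1.80 and 2.23 TPM and at 3.00, 4.44, 4.19 and 3.10 TPM (difference 0.35, adjusted p = 0.379). For Bmp2 the highest WT library was replicate 1, the one with the most flank marker RNA. That library also had the most posterior limb bud (57.7 TPM), limb mesenchyme (672.7 TPM) and erythroid (18330 TPM) marker RNA of its group. Gdf6 was at 1.59, 0.470 and 1.33 TPM and at 1.95, 2.50, 2.77 and 0.904 TPM, where Gli3-/- replicate 4 lay inside the WT range (difference 0.50, adjusted p = 0.293).

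Among the antagonists at E9.25, Grem1 was at 2.07, 1.98 and 2.57 TPM in WT and at 2.33, 2.97, 1.87 and 3.90 TPM in Gli3-/-, with both the lowest and the highest library in Gli3-/-. Its difference was 0.21 (95% confidence interval -0.30 to 0.72, limma adjusted p = 0.559), which set against the median gene was -0.02. Nog was at 1.33, 0.706 and 1.22 TPM and at 1.73, 1.61, 1.86 and 0.7101 TPM, 3 libraries of Gli3-/- above WT and 1 near its lowest (difference 0.23, adjusted p = 0.54). The signs of Grem1 and Nog turned with quantile normalization (-0.04 and -0.05). Chrd was at 0.138 to 0.198 TPM in WT and 0.206 to 0.579 TPM in Gli3-/-, and Bmper at 0 to 0.233 TPM and 0.303 to 1.08 TPM. Neither Chrd nor Bmper reached the filter, although their groups did not overlap, and without the filter their adjusted p-values were 0.423 and 0.374.

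Whether the genotype difference itself changed between the stages was tested as the interaction of stage and genotype over 14 libraries. Of the 8 genes tested, 1 passed (12.5%), against 2.13% of 16368 genes. This was Gdf6, whose genotype difference was 0.50 at E9.25 and -2.04 at E10.5, with a change of -2.54 (SE 0.34, limma adjusted p = 0.0013). It passed in all 14 fits that left out 1 library (adjusted p 0.000369 to 0.00621), and with a pseudocount of 0.1 the change was -4.48. The change for Grem1 was 0.98 (SE 0.29, adjusted p = 0.0983), and it passed without E9.25 Gli3-/- replicate 4 or E10.5 WT replicate 2, with the adjusted p at 0.035 to 0.257 over the libraries left out. The change was -0.94 for Bmp5 (adjusted p = 0.117), 0.59 for Bmp2 (adjusted p = 0.263) and -0.71 for Gdf5 (adjusted p = 0.0934). Bmp5 passed without E9.25 WT replicate 1 (adjusted p = 0.0237). The median gene changed by -0.24 on this scale.

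Stage was compared within each genotype, and these comparisons share their libraries with those of genotype. Whole buds at E9.25 were set against anterior buds at E10.5, so that stage and dissection cannot be told apart. In WT, Grem1, Gdf6 and Gdf5 rose and Bmp5 fell, as 4 of 8 genes tested, against 48.7% of 15444 genes, which is close to the background. Gdf5 and Gdf6 reached the filter only through E10.5, the stage at which they were higher. Genes that rose made up 38.1% of all genes and genes that fell 10.6%, and the median gene was 0.34 higher at E10.5. Grem1 rose from 1.98 to 2.57 TPM to 14.8 to 25.8 TPM, by 2.54 (limma adjusted p = 8.85e-05), which was 2.21 more than the median gene. Gdf6 rose by 1.34 (adjusted p = 0.00194), or by 0.80 with quantile normalization, and Gdf5 was listed at 0 at E9.25 and at 1.28 to 2.02 TPM at E10.5 (adjusted p = 0.000608). Bmp5 fell from 4.76 to 10.6 TPM to 2.13 to 2.87 TPM, by 1.26 on the log2 scale (adjusted p = 0.00364). The differences of Bmp2 (-0.49, adjusted p = 0.102), Bmp4 (-0.10, adjusted p = 0.523), Bmp7 (0.25, adjusted p = 0.102) and Nog (-0.04, adjusted p = 0.849) did not pass, and that of Bmp7 turned to -0.08 with median-of-ratios size factors and -0.03 with quantile normalization. The scaling also decided other calls. With median-of-ratios size factors Bmp4 fell by 0.44 (adjusted p = 0.0196) and Bmp2 fell by 0.72 (adjusted p = 0.0199), and with quantile normalization Bmp2 fell by 1.03 (adjusted p = 0.00289) and Nog fell by 0.62 (adjusted p = 0.0104). Bmp2 passed once the library labelled E9.25 WT replicate 2 was left out (-0.68, adjusted p = 0.0356). Chrd was below the filter, and without it had a difference of 0.67 (adjusted p = 0.00223).

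In Gli3-/-, 5 of 7 genes passed between the stages (71.4%), against 25.0% of 15434 genes, of which 15.8% rose and 9.17% fell. This share is a description, since Gdf6 and Nog reached the filter only through E9.25, the stage at which they were higher. Grem1 rose from 1.87 to 3.90 TPM to 37.3 to 47.3 TPM, by 3.52 (limma adjusted p = 1.09e-06), with a ratio of the means of 15.0. Bmp7 rose by 0.57 (adjusted p = 0.0329), and this call was lost in 4 of 7 fits that left out 1 library, namely E9.25 replicate 3 and each of the 3 libraries of E10.5 (adjusted p up to 0.118), and with no filter (adjusted p = 0.0786). Bmp5 fell by 2.205 on the log2 scale (adjusted p = 1.07e-05), and Gdf6 fell by 1.20 (adjusted p = 0.0052), or by 2.52 with a pseudocount of 0.1. Gdf6 thus went from 0.904 to 2.77 TPM down to 0.0672 to 0.425 TPM in Gli3-/-, where in WT it rose. Nog fell by 0.82 (adjusted p = 0.021), and the call held in 2 of the 7 fits that left out 1 library. It did not pass without E10.5 replicate 1 or 3 (adjusted p up to 0.0978), and without E9.25 replicate 1, 2 or 3 Nog no longer reached the filter. With no filter its adjusted p was 0.0511. With a pseudocount of 0.1 its difference was -1.74. Bmp4 (-0.20, adjusted p = 0.398) and Bmp2 (0.10, adjusted p = 0.737) did not pass. Gdf5 was below the filter, listed at 0 at E9.25 and at 0.338 to 0.716 TPM at E10.5, with an adjusted p of 0.0044 when no filter was used.

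The levels were also summed by role. The 6 ligands summed to 84.2 ± 8.93 TPM (SD, n = 3) in WT and 103.8 ± 14.7 (n = 4) in Gli3-/- at E9.25, and to 84.9 ± 8.12 (n = 4) and 90.5 ± 7.36 (n = 3) at E10.5, and the ranges of all 4 groups overlapped. Bmp4 and Bmp7 made up 74.9% to 90.8% of the ligand RNA as group means, the lowest share being that of E9.25 Gli3-/-. The 4 antagonists summed to 3.59 ± 0.638 TPM in WT and 5.22 ± 0.662 in Gli3-/- at E9.25, and to 20.5 ± 5.20 and 42.7 ± 4.71 at E10.5. No 2 of these 4 ranges overlapped. At E9.25 they lay close, at 2.88 to 4.12 TPM in WT and 4.57 to 5.91 TPM in Gli3-/-. The median gene was also 0.23 higher in Gli3-/- at that stage, and no antagonist was called. Per 100 TPM of these 6 ligands there were 4.30 ± 0.960 TPM of these 4 antagonists in WT and 5.06 ± 0.566 in Gli3-/- at E9.25, which overlapped. At E10.5 there were 24.8 ± 9.12 in WT (19.5 to 38.4, the last in replicate 2) and 47.3 ± 4.67 in Gli3-/- (41.9 to 50.1), which did not. Without WT replicate 2 the WT mean was 20.2, and without Gli3-/- replicate 3 the Gli3-/- mean was 46.0. Grem1 made up 62.0% and 52.4% of the RNA of these 4 at E9.25 and 87.9% and 97.5% at E10.5, in WT and Gli3-/- in that order. The 6 other BMP antagonists tested at E10.5 are not in these sums. Their means there in WT and Gli3-/- were 174.8 and 141.0 TPM for Fstl1, 19.1 and 16.6 for Bambi and 12.2 and 10.3 for Nbl1. They were 12.2 and 13.9 TPM for Sost, 6.48 and 10.3 for Chrdl1 and 3.70 and 4.38 for Sostdc1. These sums are descriptions of RNA and were not tested.

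**Figure D4:**
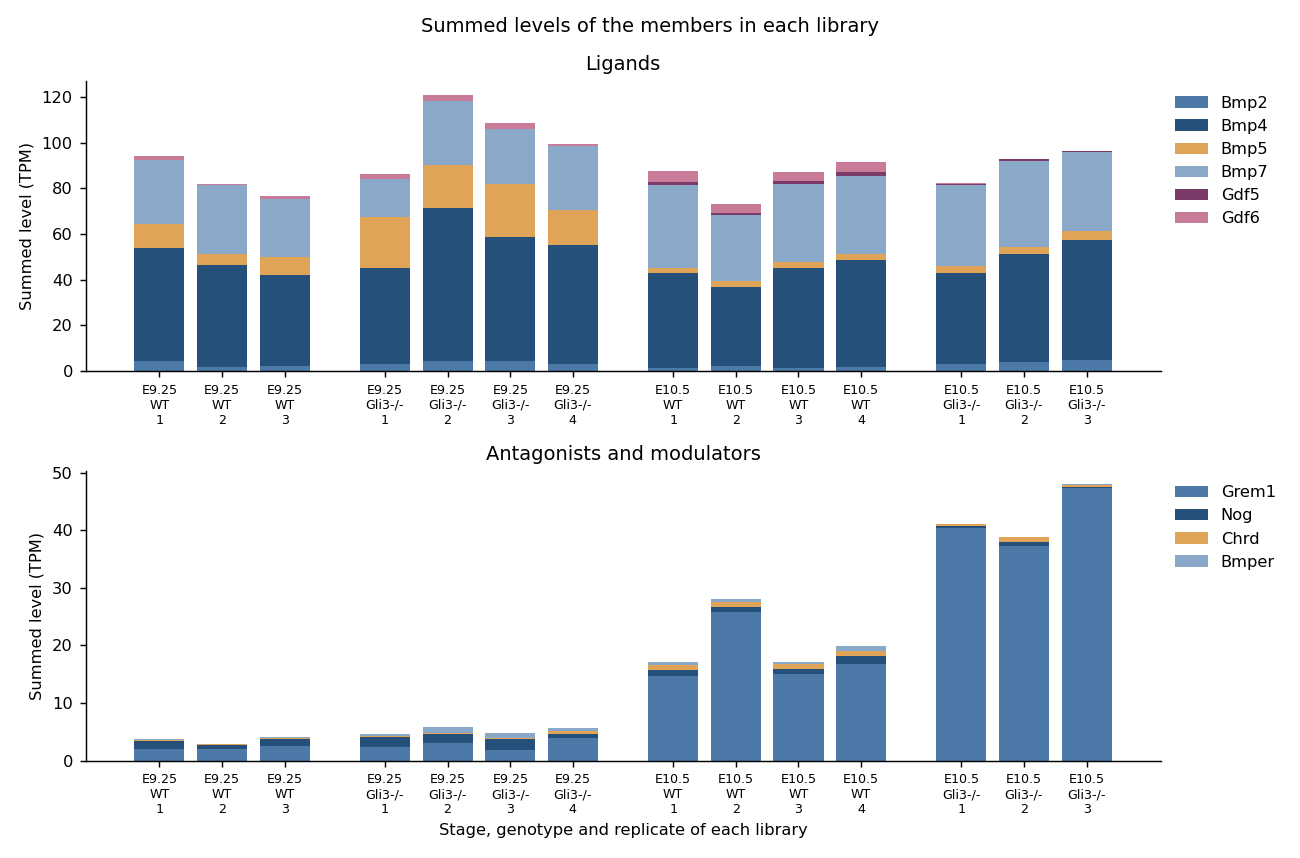
Summed level of the 6 ligands (upper) and the 4 antagonists and modulators (lower) in each library (TPM, y axis from 0), stacked by gene. Ligand sums lie between 73.1 and 120.9 TPM in every group, and antagonist sums climb from at most 5.91 TPM at E9.25 to between 38.9 and 48.0 TPM in E10.5 Gli3-/-.

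Other genes of the pathway were counted by lists. Of 11 further BMP ligands in the tables, 1 was tested at E10.5, Gdf10, a relative of BMP3, which fell in Gli3-/- by 1.04 on the log2 scale (limma adjusted p = 0.0177). It reached the filter only through WT, the group in which it was higher. Of 6 receptors tested, Bmpr1b, a type I receptor of prechondrogenic mesenchyme, fell by 0.83 (adjusted p = 0.02), from 6.11 to 9.46 TPM to 2.91 to 4.00 TPM, and 5 did not pass. None of 3 signal transducers passed. Of 6 other antagonists, 1 fell, Fstl1, which binds BMPs, by 0.31 (adjusted p = 0.0376). Of 10 extracellular modulators, Rgmb, a BMP co-receptor, rose by 0.64 (adjusted p = 0.0341), and Fbn1, a microfibril protein that tethers ligand precursors, fell by 0.68 (adjusted p = 0.0204). Over all genes tested at E10.5, 4.77% were called. List medians at E10.5 were -0.01 for receptors, 0.05 for transducers, -0.00 for the other antagonists and -0.08 for the modulators, against -0.02 over all genes. Without Gli3-/- replicate 3, the library with the most erythroid RNA, Gdf10, Bmpr1b, Fstl1 and Fbn1 did not pass, and without WT replicate 2 Rgmb did not pass and Chrdl1, a secreted antagonist, did. At E9.25 none of 6 receptors, 4 transducers, 7 antagonists, 9 modulators and 8 response genes passed.

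The 8 BMP response genes were the Id genes, Msx1, Msx2 and the inhibitory Smad6 and Smad7, whose RNA BMP signaling is known to raise. At E10.5, 5 of 8 fell in Gli3-/- and none rose, against 2.93% of all genes called lower. The median was -0.83, against -0.02 over all genes. Msx2, a homeobox gene of anterior mesenchyme and ridge, fell from 31.8 to 43.3 TPM to 6.73 to 8.98 TPM, by 2.25 on the log2 scale (limma adjusted p = 7.36e-05). Id2 fell from 210.9 ± 24.0 TPM (SD, n = 4) to 86.1 ± 8.56 TPM (n = 3), by 1.28 (adjusted p = 0.000335). Id1 fell by 0.95 (adjusted p = 0.000424) and Msx1 by 0.86 (adjusted p = 0.0027). Id4, Smad6 and Smad7 did not pass, with differences of -0.37, -0.20 and -0.27. Of the 5 calls, that of Id3 was lost without Gli3-/- replicate 3, and 5 were called without WT replicate 2. At E9.25 the median of the 8 was 0.22, as for all genes (0.23), but single genes differed. The groups did not overlap for Id3 (0.59, limma adjusted p = 0.189), Smad6 (0.67, adjusted p = 0.217) and Id4 (-0.52, adjusted p = 0.223). For all genes tested at E9.25 the share without overlap was 13.3%. The interaction passed for 4 of 8, all lower (Msx2 at -2.44, Id2 at -1.55, Id3 at -1.40 and Id1 at -0.94), against 2.13% of all genes. In the interaction the median gene changed by -0.24. Between the stages, 1 of 8 passed in WT (Smad7, 0.65), against 48.7% of all genes, and 5 of 8 fell in Gli3-/-, against 9.17%. In the same libraries the anterior markers Alx4, Irx3 and Irx5 were lower. The limb mesenchyme markers summed to 644.2 to 762.6 TPM in WT and 472.3 to 496.6 TPM in Gli3-/-, and 4 of 6 fell (Meis1, Meis2, Twist1 and Prrx1) while Fgf10 rose. The part of these markers in the differences of the response genes was not tested.

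**Figure D5:**
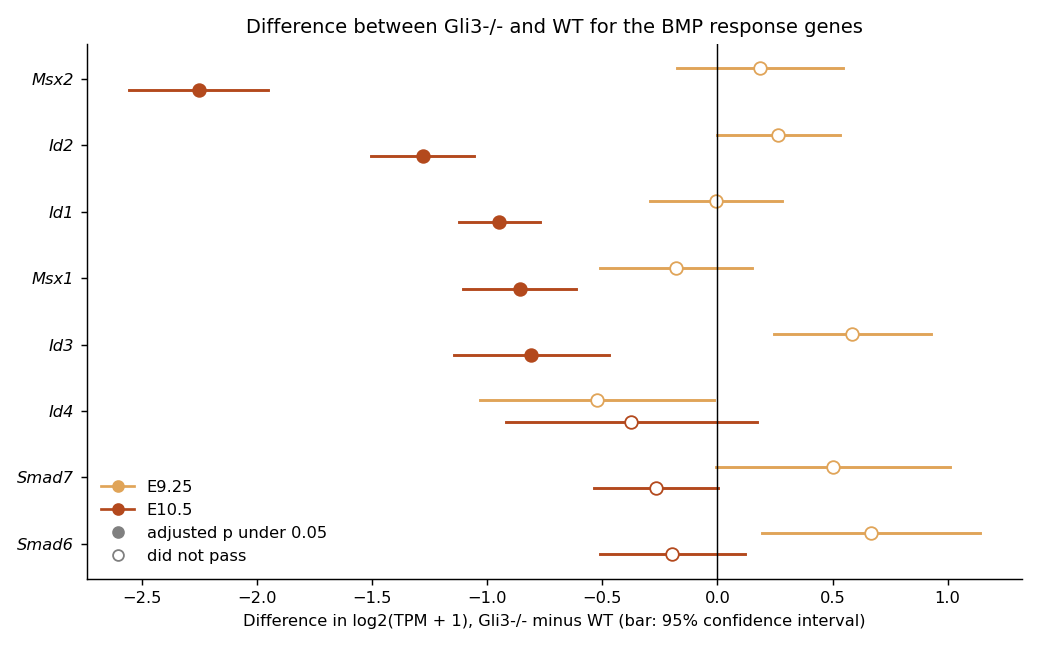
Difference between Gli3-/- and WT on the log2(TPM + 1) scale (x axis) for the 8 BMP response genes at E9.25 and E10.5, with bars for the 95% confidence interval and filled points for an adjusted p under 0.05. The 5 filled points are all at E10.5 and run from -2.25 (Msx2) to -0.81 (Id3).

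Stage was also compared in the lists, where the difference between the genotypes in these counts was not tested. Between the stages 38.1% of all genes rose in WT and 15.8% in Gli3-/-. Of 6 receptors 5 rose in WT, among them Bmpr2 (1.55) and Bmpr1b (1.29), and 2 rose in Gli3-/-. Of the 6 other antagonists tested in WT, 5 rose, among them Chrdl1 (2.16) and Sost (1.99), both secreted antagonists, and Bambi, a pseudoreceptor, fell by 1.34. In Gli3-/- 5 of 7 rose, with Nbl1 at 2.69 and Chrdl1 at 2.53, and Bambi fell by 1.54. Nbl1 was below a TPM of 1 in every E9.25 Gli3-/- library, so that it reached the filter there only through E10.5. In both genotypes Chrdl1 too reached the filter only through E10.5. Of the modulators, 6 of 9 rose in WT, among them Bmp1 (1.83), the protease that cleaves chordin, and Rgma (1.50), and in Gli3-/- 4 of 10 rose and 2 fell.

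The genes whose pattern over the 14 libraries was most like that of a BMP gene were found by Pearson's r of log2(TPM + 1) among 16367 genes. The points share the 4 groups, so that r mostly reflects group means, and it is given as a description. Bmp2 was most like Hand2 (0.941), a posterior determinant, and like AV026068 (0.890) and Sap30 (0.884), all on chromosome 8 within 57304265 to 57487860. Grem1 was most like Gm27207 (0.984), Osr2 (0.980) and Pmaip1 (0.980). Bmp5 was most like Adamts1 (0.983), Atp1b1 (0.982) and Tcf21 (0.981). Gdf5 was most like Hoxc13 (0.990), Tmem26 (0.985) and Nqo1 (0.985), and Gdf6 like Slc45a3 (0.957), Wnt4 (0.950) and Ackr3 (0.934). Bmp7 was most like Sdc1 (0.952), Etv4 (0.933) and Mest (0.918), and Nog like Prcp (0.902), Aig1 (0.901) and Ugdh (0.894). Among the BMP genes themselves, r was highest for Bmp7 and Grem1 (0.717) and lowest for Bmp5 and Gdf5 (-0.807).

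The nearest tested genes on either side of the 4 genes called at E10.5 were not called. Grem1 (2:113746164-113758646, GRCm38) lies 29397 bases from Fmn1, whose introns are known to hold Grem1 enhancers, and Fmn1 had a difference of 0.16 (limma adjusted p = 0.585). Scg5, 17716 bases away on the other side, had -0.36 (adjusted p = 0.494). Beside Gdf5 (2:155941023-155945367), Uqcc1 had 0.02 (adjusted p = 0.9) and Cep250 -0.25 (adjusted p = 0.178). Beside Gdf6 (4:9844372-9862345), Asph at 175028 bases had -0.01 (adjusted p = 0.957) and Gm12918 0.03 (adjusted p = 0.849). Beside Bmp2 (2:133552159-133562885), Fermt1 and Tmx4 lay 606253 and 1031300 bases away and had -0.45 (adjusted p = 0.206) and -0.40 (adjusted p = 0.166). Bmp4 (14:46383520-46390669) overlaps Gm15217 and Gm15222, listed on the other strand at a TPM of at least 1 in some library, and since use of strand is not stated for the tables its reads cannot be told apart from theirs.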

How the data were processed

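RNA-seq was measured in 14 libraries of pooled forelimb buds in 4 groups. The authors extracted RNA with TRIzol, prepared libraries with a NEBNext Ultra II RNA kit, sequenced single reads of 100 bases and aligned them with HISAT2. The tool and annotation of the tables are not given in the sources used here. The submitters' processing notes name mm10, and 99.8% of 33119 IDs with a RefSeq symbol overlapped that gene in GRCm38.p6. The tables that the authors deposited give TPM, FPKM and coverage (signal per base) of each gene ID, and no counts, so that DESeq2, which the authors name, was not run. The deposited TPM values were used for every comparison, and FPKM and coverage from the authors only to estimate depth, from their commonest ratio and the read length. Library depth was 38.1 to 56.8 M reads, and this estimate bounds the precision of low values.

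TPM of repeated IDs was summed. The filter kept genes that reached a TPM of 1 in 3 or more libraries of a comparison. Tests were by limma 3.58.1 (R 4.3.3) on log2(TPM + 1), with a trend, two-sided, adjusted over all genes by Benjamini-Hochberg, threshold 0.05. The interaction used all 14 libraries. P-values measure the spread between pools. Python 3.11.15 with pandas 2.3.3, NumPy 2.4.6 and matplotlib 3.10.9 did the rest.

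All 10 genes are named in every group. Of pathway lists, at most 4 genes called per genotype comparison and 2 per stage comparison are named, by size. The 3 genes most like a called gene and the nearest tested neighbours were also named. The members and lists were chosen with earlier results of these data known. Alternatives were no trend, a stricter filter (TPM of 5), no filter, a pseudocount of 0.1, median-of-ratios size factors, quantile normalization, a replicate block, 1 model of 14 libraries and each library left out. Lists, sums and Gli3 without the libraries that stand apart were added after seeing the data. ChIP-seq, CUT&RUN, CUT&Tag and ATAC-seq were not analysed here. The summed level of anterior limb bud markers is not reported here.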

Additional observations from a re-analysis of the deposited data

Results flagged for a closer look

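In E10.5 WT, replicate 4 lay apart from the other 3 libraries of its group for Gdf5, at 2.02 TPM against 1.28 to 1.33 TPM, and for Nog, at 1.38 TPM against 0.873 to 0.924 TPM. In E9.25 Gli3-/-, replicate 4 lay apart for Chrd, at 0.579 TPM against 0.206 to 0.256 TPM in the other 3. In all, 23 groups of values were examined in this way, and chance sets a library apart in about 1 in 20.

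The effect of Gli3 loss on Gdf6 differed between the stages by -2.54 on the log2 scale (limma adjusted p = 0.0013). Bmper was higher in every Gli3-/- library than in WT at E9.25 and lower in every Gli3-/- library at E10.5. It was below the filter, so that this difference was not tested with the other genes, and without the filter it was -0.974 (limma adjusted p = 0.0816).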

How the results depend on the processing

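Of 581 differences of single genes recomputed under an alternative, 537 kept their direction and their side of the threshold, 22 lost a call, 12 gained one and 10 turned sign. Normalization turned differences that had not passed, and made Bmp2, Bmp4 and Nog pass between stages in WT, with the values given above. With quantile normalization Grem1 and Nog at E9.25 were -0.0434 and -0.0498, Bmp7 between stages in WT was -0.0255, Bmp2 between stages in Gli3-/- was -0.0509 and the interaction of Bmp4 was 0.0774. With median-of-ratios size factors Bmp7 in WT was -0.0828, the interaction of Bmp4 was 0.17 and the ligand sum in E9.25 WT was 98.6 TPM. Leaving out each library gave -0.0206 to 0.232 for Bmp2 between stages in Gli3-/- and -0.211 to 0.00947 for the interaction of Bmp4, with 0.00537 without E10.5 Gli3-/- replicate 1. The cause was not tested.

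All genes called at E9.25 (20) were 0 with no filter, 66 with the replicate block, 1185 in 1 model of 14 libraries and 2 to 196 with a library left out. At E10.5 (747) they were 391 with no filter, 164 with the replicate block, 406 in 1 model and 301 to 680 with a library left out. Between stages they were 4699 with the replicate block in WT (7520) and 2129 to 4326 with a library left out in Gli3-/- (3853). For the interaction (348) they were 42 with the replicate block and 150 to 1433 with a library left out.

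Of the BMP genes, 1 was called at E9.25 in 1 model of 14 libraries, and 0 to 1 with a library left out. At E10.5 (4) the count was 1 with a filter at a TPM of 5, which tested fewer genes, and 3 with any library left out, Gdf5 being lost. Between stages the filter at a TPM of 5 left 1 call in WT (4) and 3 in Gli3-/- (5), and leaving out a library gave 2 to 5 in Gli3-/-. For the interaction (1) the count was 2 with no filter or no trend, 0 with a filter at a TPM of 5 and 1 to 2 with a library left out.

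Replicate numbers in the titles are shared by the groups, but same-numbered libraries did not deviate together (r of -0.199 to -0.161 at E9.25 and -0.18 to 0.153 at E10.5, 3 pairs each), so that they share only a number. With this replicate block, 1 BMP gene was called at E10.5 (Gdf6), and with the numbers of the deposited tables (r of 0.0522 to 0.316) 2 were (Gdf6 and Grem1). Grem1 had an adjusted p of 0.0965 with the first block, and Bmp2 one of 0.0897 and 0.0631 with the blocks in that order. Depth limits Nog, Chrd and Bmper, which lay near or below a TPM of 1.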
